A study of Homo sapiens with 9 samples.

Results

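The 32 genes described here belong to the unfolded protein response and to the secretory pathway of the endoplasmic reticulum (ER). They were taken by name from a list of ER chaperones, stress sensors and translocation genes. No measured value enters that rule, but the list was drawn up with earlier results of these data known, so it is not independent of them. All 32 were present among the 58243 gene identifiers of each count file, and all 32 passed the filter on low counts that left 15163 genes for testing. Their counts lay between 199 and 17947 per library.

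Expression was measured by bulk RNA-seq in DOHH2, an established cell line from a human follicular lymphoma that had transformed to a large B-cell lymphoma. There were 9 libraries, 3 in each of 3 groups. The femur groups, sampled 19 or 40 days after the graft, held cells that carried human CD20 and had been sorted from the femurs of RAGγc mice, which lack the immunity that rejects human grafts. The culture group held DOHH2 cells grown in culture and sampled on the day of the graft (day 0). All groups carried the genome of the same line, and no other allele, drug or treatment is named for any of them. Femur cells went through bone digestion, bead depletion of mouse blood cells and sorting, steps that are described for the femurs and not for the cultures, so this handling and the growth site cannot be told apart.

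The sample titles end in numbers, read here as sampling dates, that place each femur library in a sampling period with a culture library. The labels do not say what these numbers date. The day 19 libraries followed their culture library by 18, 19 and 19 days. The day 40 libraries of replicates 1, 2 and 3 followed theirs by 11, 26 and 39 days. If the numbers are sampling dates, the graft of day 40 replicates 1 and 2 preceded the culture sampled in that period. Neither the animals nor the cultures behind a library are named, so p-values reflect sample-to-sample spread only, some of which may be technical. Libraries held between 21071239 and 29456271 counts, and log2 expression correlated at 0.987 to 0.993 between libraries of a group. Mitochondrially encoded genes took between 7.54% and 8.67% of the counts in femur libraries, against 4.83% to 6.07% in culture libraries.

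Proteins bound for secretion or for membranes enter the ER through the SEC61 channel, are folded by chaperones and disulfide isomerases, and are passed back to the cytosol for degradation when folding fails. When unfolded proteins accumulate, the sensors IRE1 (ERN1), ATF6 and PERK (EIF2AK3) start the unfolded protein response. IRE1 splices the mRNA of the transcription factor XBP1, ATF6 is cleaved to release a transcription factor, and PERK slows translation. In the B lineage the pathway is best known from plasma cells, whose antibody secretion needs XBP1. A gene count does not separate spliced from unspliced XBP1 mRNA, and it does not measure cleavage or phosphorylation of the sensors, so none of these activities was measured.

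Several of these promoters carry the ER stress element, ERSE, to which ATF6 binds together with the CCAAT factor NF-Y, or its variant ERSE-II. The windows searched run from 250 bases before to 50 bases after the start of each gene (RefSeq, GRCh38.p14), and 30 of the 32 genes have one; the genes without are DERL1 and PDIA3. ERSE was searched as CCAAT, any 9 bases and CCACG, on both strands, and was found in the windows of CALR, CANX, CRELD2, HSP90B1, HSPA5, PDIA6 and XBP1, that is 7 of 30, against 27 of 35116 windows of all genes (0.0769%). ERSE-II was searched as ATTGG, any 1 base and CCACG and was found for HERPUD1, HYOU1 and SDF2L1, 3 of 30, against 19 of 35116 windows (0.0541%). The 30 are counted as genes and the 35116 as windows, and these windows include those of the 30 genes. TGACGTGG, the unfolded protein response element that XBP1 can bind, lay in 256 windows (0.729%), among them those of HYOU1 and SSR3, and the HYOU1 match overlaps the farther of its 2 ERSE-II matches. The matches below are shown so that the motif can be read in its surroundings. They are those that lie wholly outside the gene as GENCODE annotates it, so those of CANX, CRELD2, HSP90B1 and PDIA6 are not printed, and for HYOU1 the ERSE-II nearer to the start is given. At day 19, described below, 5 of these 6 genes were lower and HERPUD1 was higher, beside 26.5% lower and 26.3% higher over all genes. Capitals mark the motif, and each sequence reads 5′ to 3′ along the strand of the gene.
CALR, chr19:12938359-12938442, plus strand, ERSE in reverse: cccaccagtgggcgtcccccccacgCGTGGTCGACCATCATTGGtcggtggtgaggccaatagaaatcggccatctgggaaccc
HSPA5, chr9:125241351-125241449, minus strand, ERSE: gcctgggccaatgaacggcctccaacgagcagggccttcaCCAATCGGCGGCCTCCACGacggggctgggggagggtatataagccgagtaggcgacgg
XBP1, chr22:28800598-28800661, minus strand, ERSE: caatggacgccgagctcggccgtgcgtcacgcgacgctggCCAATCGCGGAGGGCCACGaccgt
SDF2L1, chr22:21642074-21642164, plus strand, ERSE-II in reverse: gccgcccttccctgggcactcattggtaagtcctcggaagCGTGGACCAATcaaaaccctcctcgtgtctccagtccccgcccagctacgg
HYOU1, chr11:119057234-119057324, minus strand, ERSE-II in reverse: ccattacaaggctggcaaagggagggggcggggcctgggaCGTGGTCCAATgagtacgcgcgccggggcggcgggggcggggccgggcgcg
HERPUD1, chr16:56931985-56932047, plus strand, ERSE-II: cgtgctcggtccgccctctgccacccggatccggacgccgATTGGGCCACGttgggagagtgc

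Levels differed widely among the 32 genes. They are given as CPM, counts scaled to a common library size, and between genes they are compared per kilobase of exon. At day 19 CALR, the lectin chaperone calreticulin, stood highest at 152 ± 4.95 CPM per kb, against 233 ± 5.24 CPM per kb in culture (SD, n = 3 each). ERN1 stood lowest, at 0.852 ± 0.0571 CPM per kb at day 19 and 0.825 ± 0.0638 CPM per kb in culture. Summed over the 32 genes, femur cells held 4359 ± 67.9 CPM at day 19, against 5461 ± 201 CPM in culture. At day 40 the sum was 4561 ± 75.4 CPM, against the same culture value.

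Cells sorted from the femur at day 19 were compared with day 0 culture, a comparison that holds both growth site and handling. Most of the set was lower in the femur: 23 of the 32 genes were lower at day 19 than in culture, 3 were higher and 6 were not called, at an adjusted p under 0.05 in edgeR's quasi-likelihood test over all genes. Of all genes tested 26.5% were lower and 26.3% higher, so 52.8% were called in either direction. Under scaling by total library size alone, 22 of the 32 genes were lower and 3 higher, where 21.2% of all genes were lower and 30.7% higher. The median log2 fold change was -0.47 over the 32 genes and 0.01 over all genes. The changes were moderate. Fitted falls lay between 15.5% for HYOU1 and 45.5% for SEC61B, rises lay between 34.3% for SYVN1 and 79.1% for DNAJB9, and none of the 32 changed by 2-fold. All day 19 libraries lay below all culture libraries for 24 genes and above them for 3, where 31.0% and 30.6% of all genes did so. In bulk RNA, fewer cells of a kind and less RNA per cell cannot be told apart.

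**Figure D1:**
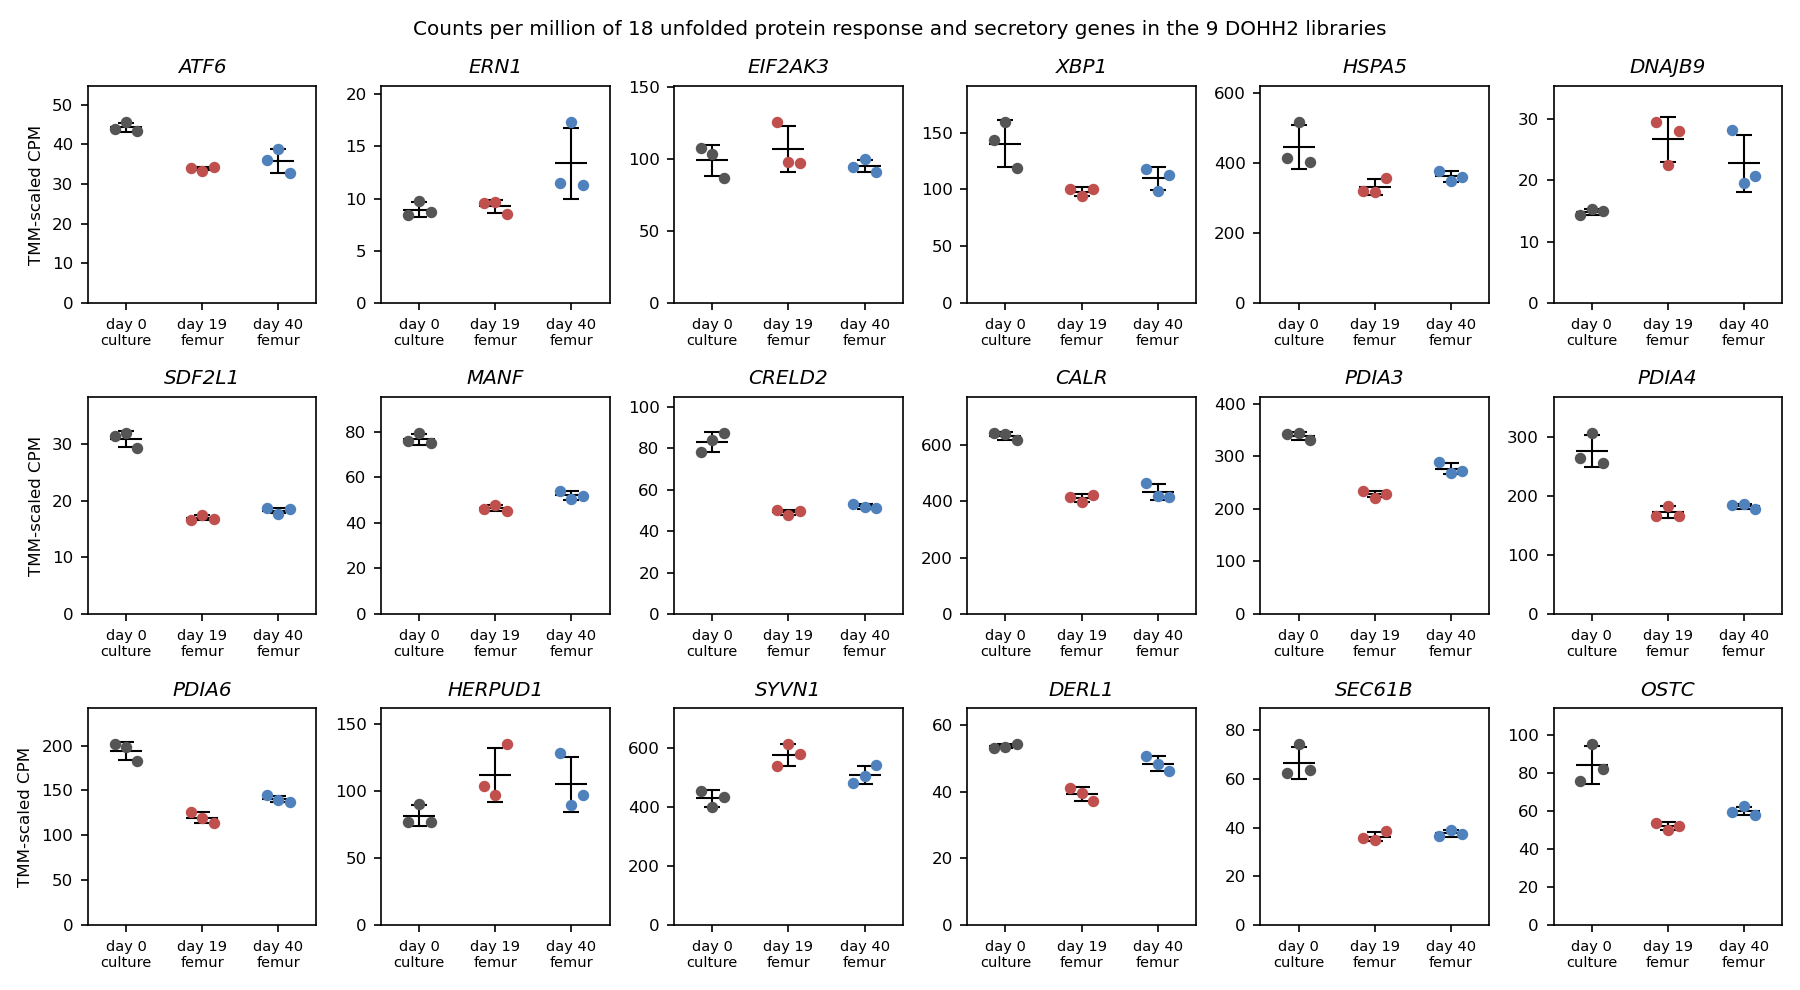
TMM-scaled CPM (linear axes from 0) of 18 of the 32 genes in the culture, day 19 and day 40 libraries; points are libraries, bars are the mean and SD of 3 libraries. SEC61B, SDF2L1, CRELD2 and MANF lie lower in all femur libraries than in all culture libraries, and DNAJB9 and SYVN1 lie higher.

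Among the stress sensors and their transcription factor, 2 of 4 were lower at day 19, beside 26.5% of all genes. XBP1 (chromosome 22, 28794555 to 28800597) had 100.0, 94.0 and 100.4 CPM at day 19, against 143, 159 and 119 CPM in culture. The groups did not overlap, although culture replicate 3 came close to the femur libraries (log2 fold change -0.52, SE 0.10, adjusted p = 0.000988). ATF6 (chromosome 1, 161766294 to 161964070) had 34.0, 33.3 and 34.2 CPM at day 19, against 43.9, 45.6 and 43.4 CPM in culture, a narrow spread in both groups (log2 fold change -0.39, SE 0.08, adjusted p = 0.000992). EIF2AK3 had 125, 97.7 and 97.2 CPM at day 19, against 107, 103 and 86.6 CPM in culture. These values overlapped, and its log2 fold change of 0.11 (SE 0.10) was not called (adjusted p = 0.396). ERN1 had 9.59, 9.64 and 8.54 CPM at day 19, against 8.44, 9.75 and 8.68 CPM in culture, with no call (log2 fold change 0.05, SE 0.17, adjusted p = 0.829).

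Of 7 ER chaperones and cochaperones, 4 were lower and 1 was higher, beside 26.5% lower and 26.3% higher over all genes. HSPA5 (chromosome 9, 125234853 to 125241330), which encodes BiP, the main ER chaperone and the protein that holds the sensors inactive, had 319, 318 and 358 CPM at day 19, against 415, 517 and 404 CPM in culture (log2 fold change -0.42, SE 0.09, adjusted p = 0.00223). Culture replicate 2 was the highest, and the lowest culture library still lay above the highest femur library. SDF2L1, a stress-induced partner of ER J-domain proteins, had 16.7, 17.5 and 16.9 CPM at day 19, against 31.5, 32.0 and 29.4 CPM in culture (log2 fold change -0.86, SE 0.08, adjusted p = 2.57e-06). It was the chaperone with the lowest ratio of femur to culture. The BiP cochaperone DNAJC3 (log2 fold change -0.49) and HYOU1, a nucleotide exchange factor of BiP (-0.24), were also lower. For HYOU1 the call was lost under scaling by total library size alone (log2 fold change -0.16, adjusted p = 0.0633). HSP90B1, the ER paralog of HSP90, had 252 ± 11.1 CPM at day 19 and 246 ± 11 CPM in culture (SD, n = 3 each), and DNAJB11, another J-domain cochaperone, had 42.4 ± 1.66 CPM at day 19 and 49.9 ± 2.19 CPM in culture; neither was called (adjusted p = 0.725 and 0.0554).

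DNAJB9 (chromosome 7, 108569568 to 108574850), a BiP cochaperone of the IRE1 branch, stood apart from the other chaperones. It had 29.4, 22.4 and 28.0 CPM at day 19, against 14.3, 15.3 and 15.0 CPM in culture. Every femur library lay above every culture library, and the rise was the largest of the 32 genes (log2 fold change 0.84, SE 0.14, adjusted p = 0.000361). DNAJB9 shares exon bases with PNPLA8 and THAP5 on the opposite strand (3.49% and 6.45% of its exon bases), and since no strand setting is given in the sources used here, reads there cannot be assigned. Both neighbours had more counts than DNAJB9 over the 9 libraries, 10998 for PNPLA8 and 8206 for THAP5, against 4734 for DNAJB9.

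Both stress-induced secreted proteins were lower at day 19, beside 26.5% of all genes. MANF, a neurotrophic factor that binds BiP, had 46.0, 47.9 and 45.3 CPM at day 19, against 75.9, 79.4 and 75.0 CPM in culture (log2 fold change -0.73, SE 0.06, adjusted p = 1.42e-06). CRELD2 had 50.1, 47.6 and 49.6 CPM at day 19, against 78.1, 83.8 and 87.3 CPM in culture (log2 fold change -0.76, SE 0.06, adjusted p = 1.26e-06). The lectin chaperones, which hold glycoproteins during folding, were lower as well. CALR (chromosome 19, 12938578 to 12944489) had 415, 396 and 422 CPM at day 19, against 643, 640 and 617 CPM in culture (log2 fold change -0.62, SE 0.07, adjusted p = 1.05e-05). CANX, calnexin, had 478 ± 35.3 CPM at day 19 and 719 ± 21.2 CPM in culture (SD, n = 3 each; log2 fold change -0.59).

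The isomerases, which form and rearrange disulfide bonds or turn prolyl bonds, were lower in 4 of 4 cases, beside 26.5% of all genes. PDIA6 had 126, 120 and 114 CPM at day 19, against 202, 198 and 183 CPM in culture (log2 fold change -0.70, SE 0.06, adjusted p = 2.57e-06). PDIA4 had 167, 184 and 167 CPM at day 19, against 265, 307 and 257 CPM in culture (log2 fold change -0.68, SE 0.08, adjusted p = 1.40e-05). PDIA3 (chromosome 15, 43746392 to 43773279), which works with the lectin chaperones, had 234, 221 and 229 CPM at day 19, against 342, 344 and 330 CPM in culture (log2 fold change -0.57, SE 0.06, adjusted p = 7.24e-06). PPIB, the prolyl isomerase cyclophilin B, had 42.9 ± 2.01 CPM at day 19 and 69.3 ± 8.12 CPM in culture (log2 fold change -0.69). For none of the isomerases did a femur library reach a culture library. PPIB, PDIA6 and PDIA3 share 27.2%, 25.2% and 14.8% of their exon bases with SNX22, ATP6V1C2 and ELL3 on the opposite strand, and each of these neighbours had fewer counts than the gene itself.

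Of 7 genes of ER-associated degradation, which sends misfolded proteins to the cytosol, 2 were higher, 3 lower and 2 not called. Over all genes 26.3% were higher and 26.5% lower, so counts among so few genes say little about this role. SYVN1 (chromosome 11, 65121780 to 65134533), which encodes the ubiquitin ligase HRD1, had 540, 614 and 581 CPM at day 19, against 457, 401 and 434 CPM in culture (log2 fold change 0.43, SE 0.08, adjusted p = 0.000575). All femur libraries were above all culture libraries. SYVN1 shares 7.24% of its exon bases with FAU on the same strand and 6.48% with MRPL49 on the opposite strand, so part of its count is uncertain. HERPUD1, a stress-induced membrane protein of the HRD1 complex, had 104, 97.6 and 135 CPM at day 19, against 77.1, 90.8 and 77.3 CPM in culture (log2 fold change 0.46, SE 0.14, adjusted p = 0.0159). Its call rested on single libraries: the adjusted p was 0.0836 without day 19 replicate 3, 0.0556 without culture replicate 1 and 0.0556 without culture replicate 3. The HRD1 partner SEL1L had 86.5 ± 4.73 CPM at day 19 and 109 ± 9.55 CPM in culture (log2 fold change -0.33), opposite in direction to SYVN1. The derlins of the export channel were lower, with DERL1 at 41.1, 39.5 and 37.2 CPM at day 19, against 53.2, 53.5 and 54.2 CPM in culture (log2 fold change -0.45, SE 0.07, adjusted p = 0.000147), and DERL2 at a log2 fold change of -0.53. EDEM1, a lectin that selects glycoproteins for degradation, had 358 ± 15.5 CPM at day 19 and 343 ± 29.1 CPM in culture, and SELENOS, a selenoprotein that recruits the extraction machinery, had 14.4 ± 0.165 CPM at day 19 and 15.3 ± 2.78 CPM in culture; neither was called.

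The genes of translocation and early processing were lower in 6 of 6 cases, beside 26.5% of all genes. SEC61B (chromosome 9, 99222064 to 99230615), the beta subunit of the SEC61 channel, had 35.8, 34.7 and 38.5 CPM at day 19, against 62.4, 74.2 and 63.5 CPM in culture. This was the largest fall of the 32 genes (log2 fold change -0.88, SE 0.08, adjusted p = 2.84e-06). OSTC, a subunit of the oligosaccharyltransferase that attaches N-glycans, had 53.7, 49.8 and 52.3 CPM at day 19, against 75.6, 95.1 and 82.1 CPM in culture (log2 fold change -0.70, SE 0.08, adjusted p = 2.36e-05). The channel pore subunit SEC61A1 (log2 fold change -0.36), the translocon-associated subunits SSR3 (-0.51) and SSR1 (-0.47) and the signal peptidase subunit SPCS2 (-0.46) fell by less than SEC61B, and for each of them the day 19 and culture libraries did not overlap.

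**Figure D2:**
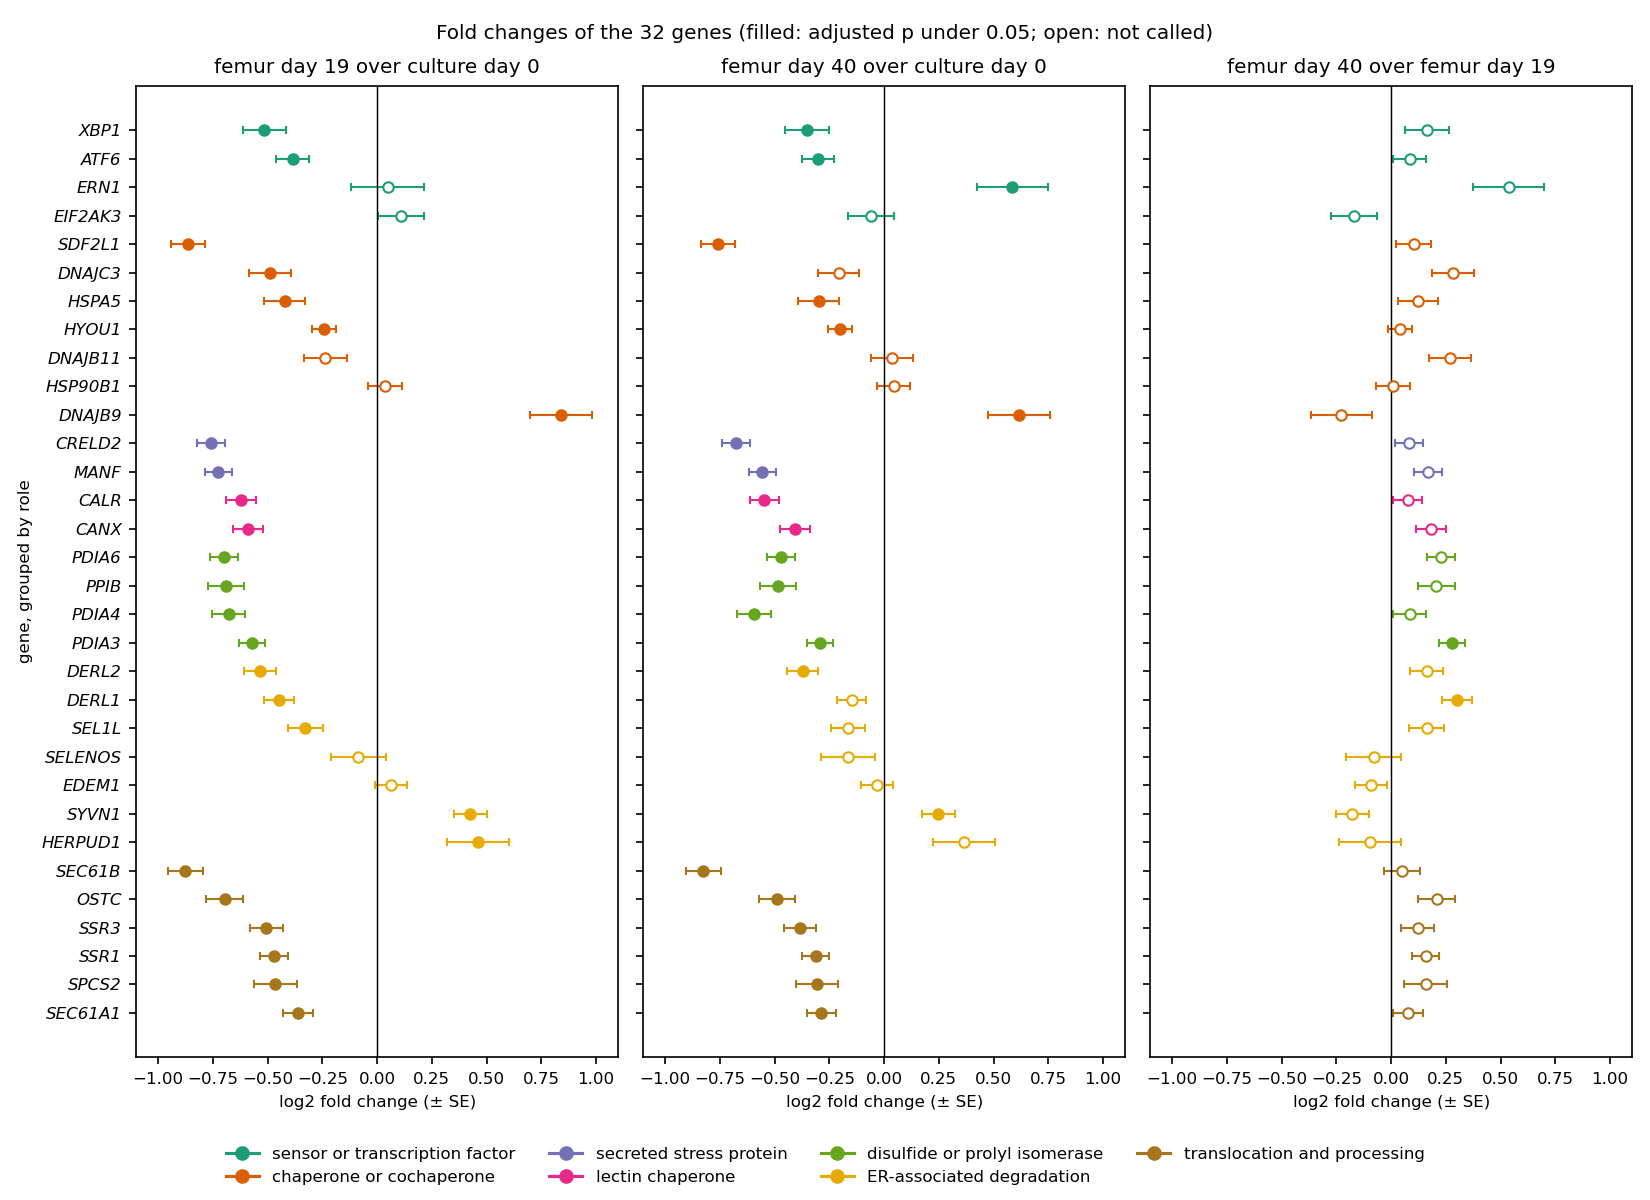
Log2 fold change with SE of the 32 genes, ordered by role, for day 19 over culture (left), day 40 over culture (middle) and day 40 over day 19 (right); filled points had an adjusted p under 0.05. On the left 23 genes are called below 0 and 3 above, in the middle 20 and 3, and on the right PDIA3 and DERL1 are called above 0.

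Cells sorted at day 40 were set against the same culture libraries. Here 20 of the 32 genes were lower than in culture, 3 were higher and 9 were not called, where 23.3% of all genes were lower and 23.3% higher (46.6% in either direction). Under scaling by total library size alone, 18 of the 32 genes were lower and 4 higher, where 17.5% of all genes were lower and 27.4% higher. The median log2 fold change was -0.30 over the 32 genes and 0.01 over all genes, and called falls lay between 13.1% for HYOU1 and 43.6% for SEC61B. All day 40 libraries lay below all culture libraries for 22 genes and above them for 3, where 27.4% of all genes lay in each direction. The 20 genes lower at day 40 were all also lower at day 19, and DNAJB9 and SYVN1 were higher at both days, but both comparisons share the 3 culture libraries. With day 40 represented by replicate 3 alone, the only day 40 library whose date fits the interval, 14 of the 32 genes were lower and 0 higher, where 12.6% of all genes were called in each direction. This lone library was assumed to vary like those of the other groups. DNAJB9 and SYVN1 kept positive log2 fold changes there (0.47, adjusted p = 0.0509, and 0.33, adjusted p = 0.056).

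Lower genes at day 40 spanned the same roles. XBP1 had 118, 98.6 and 113 CPM at day 40, against a mean of 140 CPM in culture, and replicate 1 came close to the lowest culture library (log2 fold change -0.35, SE 0.10, adjusted p = 0.0123). ATF6 had 36.1, 38.8 and 32.7 CPM at day 40, against a mean of 44.3 CPM in culture (log2 fold change -0.30, SE 0.07, adjusted p = 0.00563). HSPA5 had 377, 348 and 359 CPM at day 40, against a mean of 445 CPM in culture (log2 fold change -0.30, SE 0.09, adjusted p = 0.0189). No day 40 library of these genes reached a culture library, yet the HSPA5 call was lost without day 40 replicate 2 (adjusted p = 0.0553), without day 40 replicate 3 (adjusted p = 0.0553) and with total library size scaling (adjusted p = 0.051). SDF2L1 had 18.7, 17.7 and 18.5 CPM at day 40, against a mean of 31.0 CPM in culture (log2 fold change -0.76, SE 0.08, adjusted p = 1.13e-05). SEC61B had 36.5, 39.0 and 37.3 CPM at day 40, against a mean of 66.7 CPM in culture (log2 fold change -0.83, SE 0.08, adjusted p = 7.36e-06). These were again the largest falls of the set, with day 40 values close to those of day 19.

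CRELD2 had 53.3, 51.6 and 51.1 CPM at day 40, against a mean of 83.1 CPM in culture (log2 fold change -0.68, SE 0.06, adjusted p = 5.50e-06). MANF had 54.2, 50.4 and 51.9 CPM at day 40, against a mean of 76.8 CPM in culture (log2 fold change -0.56, SE 0.06, adjusted p = 2.06e-05). CALR had 467, 419 and 414 CPM at day 40, against a mean of 633 CPM in culture (log2 fold change -0.55, SE 0.07, adjusted p = 4.69e-05). The secreted stress proteins and lectin chaperones were thus lower in both femur groups, CANX included (log2 fold change -0.41 at day 40). Among the isomerases PDIA4 had 185, 186 and 178 CPM at day 40, against a mean of 276 CPM in culture (log2 fold change -0.59, SE 0.08, adjusted p = 6.19e-05), and PDIA6 (-0.47), PPIB (-0.48) and PDIA3 (-0.29) were lower too. All 6 translocation genes were lower, beside 23.3% of all genes. OSTC had 59.3, 62.6 and 58.1 CPM at day 40, against a mean of 84.3 CPM in culture (log2 fold change -0.49, SE 0.08, adjusted p = 0.000486). SPCS2 (-0.31, adjusted p = 0.0201) lost its call without culture replicate 1 (adjusted p = 0.0649), culture replicate 2 (adjusted p = 0.0552) or day 40 replicate 2 (adjusted p = 0.0562), and in a fit of the 2 groups alone (adjusted p = 0.0528). HYOU1 (-0.20, adjusted p = 0.0108) lost its call without day 40 replicate 3 (adjusted p = 0.0503) and with total library size scaling (adjusted p = 0.151).

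Of the 3 genes higher at day 40, SYVN1 and ERN1 lost their call when a single library was left out. DNAJB9 had 28.1, 19.5 and 20.7 CPM at day 40, against a mean of 14.9 CPM in culture (log2 fold change 0.61, SE 0.14, adjusted p = 0.00383), and replicate 1 stood above the other two. SYVN1 had 484, 505 and 544 CPM at day 40, against a mean of 430.4 CPM in culture (log2 fold change 0.25, SE 0.08, adjusted p = 0.0187). Its call was lost without day 40 replicate 3 (adjusted p = 0.0821). ERN1, the gene of the IRE1 sensor, had 11.5, 17.3 and 11.4 CPM at day 40, against a mean of 8.96 CPM in culture (log2 fold change 0.58, SE 0.16, adjusted p = 0.0110). Replicate 2 was far above the other two, and without it the log2 fold change was 0.34 with an adjusted p of 0.0565. HERPUD1 had 128, 89.6 and 97.3 CPM at day 40, against a mean of 81.7 CPM in culture. It overlapped culture and was not called (log2 fold change 0.36, adjusted p = 0.051), but it was called with DESeq2 (adjusted p = 0.0305) and with RLE scaling (adjusted p = 0.0491), among others. EIF2AK3 had 94.2, 99.6 and 91.0 CPM at day 40, within the culture range (log2 fold change -0.06, adjusted p = 0.667).

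The comparison of day 40 with day 19 also tests whether the changes from culture differed between the days. Only PDIA3 and DERL1 were called among the 32 genes, both higher at day 40, and 0 were lower, where 3.23% of all genes were higher and 1.45% lower (4.68% in either direction). At an unadjusted p under 0.05, 12 of the 32 were higher and 1 lower, where 9.78% of all genes were higher and 6.94% lower. DESeq2 called 4 of the 32 higher and 0 lower, where it called 4.16% of all genes higher and 2.37% lower. PDIA3 had 289, 269 and 271 CPM at day 40, against 234, 221 and 229 CPM at day 19 (log2 fold change 0.28, SE 0.06, adjusted p = 0.0176). DERL1 (chromosome 8, 123013164 to 123042423) had 50.6, 48.3 and 46.3 CPM at day 40, against 41.1, 39.5 and 37.2 CPM at day 19 (log2 fold change 0.30, SE 0.07, adjusted p = 0.0236). For both genes all day 40 libraries lay above all day 19 libraries and below all culture libraries. Against culture at day 40, PDIA3 was lower but DERL1 was not called (log2 fold change -0.15, adjusted p = 0.0853). Neither call between the femur groups survived the loss of single libraries. The adjusted p of PDIA3 was 0.078 without day 40 replicate 1, 0.11 without day 19 replicate 2 and 0.0932 without day 19 replicate 3. That of DERL1 was 0.0888 and 0.0742 without day 40 replicates 1 and 2, and 0.0947 and 0.141 without day 19 replicates 2 and 3.

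Over the 32 genes the median log2 fold change of day 40 against day 19 was 0.12, and 26 of 32 fold changes were above 0 (81.3%), against a median of 0.004 and 50.9% over all genes. The libraries of day 40 lay wholly above those of day 19 for 16 genes and wholly below for 1, where 14.0% and 12.6% of all genes did so. Libraries of the same sampling period deviated together in this comparison, and those of day 40 and culture did so as well. With the period as a block 5 of the 32 genes were called higher and 0 lower in the fit of all libraries, with ERN1, DNAJC3 and PDIA6 added. Over all genes that fit called 4.3% higher and 2.07% lower. In a block fit of the 2 femur groups alone, an alternative chosen after seeing the data, 8 were higher, with DNAJB11, CANX and PPIB added, and over all genes 6.81% were higher and 4.36% lower. Without the block PDIA6 had 145, 139 and 138 CPM at day 40, against 126, 120 and 114 CPM at day 19 (log2 fold change 0.23, adjusted p = 0.0643). ERN1 had 13.4 ± 3.41 CPM at day 40 and 9.26 ± 0.620 CPM at day 19 (SD, n = 3 each; log2 fold change 0.54, adjusted p = 0.0917). The genes that rose at day 19 had negative values here, DNAJB9 at -0.23, SYVN1 at -0.18 and HERPUD1 at -0.10, and none of these was called.

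Most genes were lower whether or not their window held an ERSE or ERSE-II match. Of the 10 genes with a match, 8 were lower and 1 (HERPUD1) was higher at day 19, with a median log2 fold change of -0.55. Of the 20 genes whose window held neither, 13 were lower and 2 higher, with a median of -0.43. Over all genes 26.5% were lower and 26.3% higher at day 19. At day 40 the counts were 8 lower and 0 higher with a match (median -0.38) and 11 lower and 3 higher without (median -0.29). Over all genes 23.3% were called in each direction at day 40. HSP90B1, which carries ERSE on both strands, was not called at either day, while HSPA5 and SDF2L1, shown with their matches above, were lower at both. These counts describe letters in the window only.

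Other genes of the secretory pathway, 135 in 5 lists of which 129 could be tested, were called lower more often than higher. At day 19, 67 of 129 were lower, 15 higher and 47 not called, beside 26.5% lower and 26.3% higher over all genes. At day 40, 58 were lower, 14 higher and 57 not called, beside 23.3% in each direction over all genes. The translocation and processing list had 22 of 30 genes lower and 3 higher at day 19 (median log2 fold change -0.40). SEC11C, a catalytic subunit of the signal peptidase, had 29 ± 2.10 CPM at day 19 and 56.1 ± 4.19 CPM in culture, and DAD1, an oligosaccharyltransferase subunit, had 29.2 ± 1.0 CPM at day 19 and 54 ± 5.24 CPM in culture. TRAM1, a translocating chain-associated membrane protein, went the other way, with 279.7 ± 9.79 CPM at day 19 and 120.1 ± 18 CPM in culture (log2 fold change 1.22, SE 0.11, adjusted p = 2.55e-06). In the list of ER to Golgi transport 18 of 29 genes were lower and 2 higher (median -0.23), among them the coat protein SEC24D (log2 fold change -0.90), the cargo receptor LMAN2 (-0.73) and TMED2 (-0.59). Among other folding factors 14 of 27 were lower and 3 higher (median -0.25). The disulfide reductase DNAJC10 had 144 ± 8.38 CPM at day 19 and 303 ± 8.18 CPM in culture, ERP44 had a log2 fold change of -0.83, and the glucosyltransferase homolog UGGT2 was higher (0.76).

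In the lists of degradation and signalling the share of lower genes was near the 26.5% of all genes. Of 26 other degradation genes 8 were lower and 4 higher at day 19 (median -0.10), with the ubiquitin ligase RNF5 (log2 fold change -0.56) lower. DERL3 was also lower (-0.79), but 77.0% of its exon bases lie opposite SMARCB1. Of 17 other stress signalling genes 5 were lower and 3 higher (median -0.02). SESN2 (-0.84), BBC3 (-1.03) and the protease gene MBTPS2 (-0.54), which cleaves ATF6, were lower. In the PERK arm, chosen for naming after the values were seen, ATF4 had 575 ± 35.8 CPM at day 19 and 647 ± 111 CPM in culture (adjusted p = 0.183). At day 40 it had 529 ± 12.8 CPM and was lower than in culture (log2 fold change -0.29, adjusted p = 0.0346). The arm was not uniform. TRIB3 (log2 fold change -0.0042, adjusted p = 0.972) and CHAC1 (0.18, adjusted p = 0.446) were not called at day 19, nor at day 40 (adjusted p = 0.263 and 0.499), while DDIT3 and ATF3 were higher at both days. DDIT3, which encodes CHOP, had 23.4 ± 3.63 CPM at day 19 and 12.9 ± 1.99 CPM in culture (log2 fold change 0.86, adjusted p = 0.000228), with 27.2% of its exon bases opposite MARS. ATF3, which is also an immediate early gene, had 3.41 ± 0.779 CPM at day 19 and 0.481 ± 0.0962 CPM in culture (log2 fold change 2.82, adjusted p = 0.000844). At day 40 DDIT3 and ATF3 were higher as well (log2 fold changes 0.64 and 3.48). Of the lists at day 40, translocation had 21 of 30 genes lower and 3 higher, transport 16 of 29 lower and 1 higher, and folding 12 of 27 lower and 3 higher. Degradation had 5 of 26 lower and 3 higher and signalling 4 of 17 lower and 4 higher, shares near the 23.3% of all genes in each direction or below it.

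**Figure D3:**
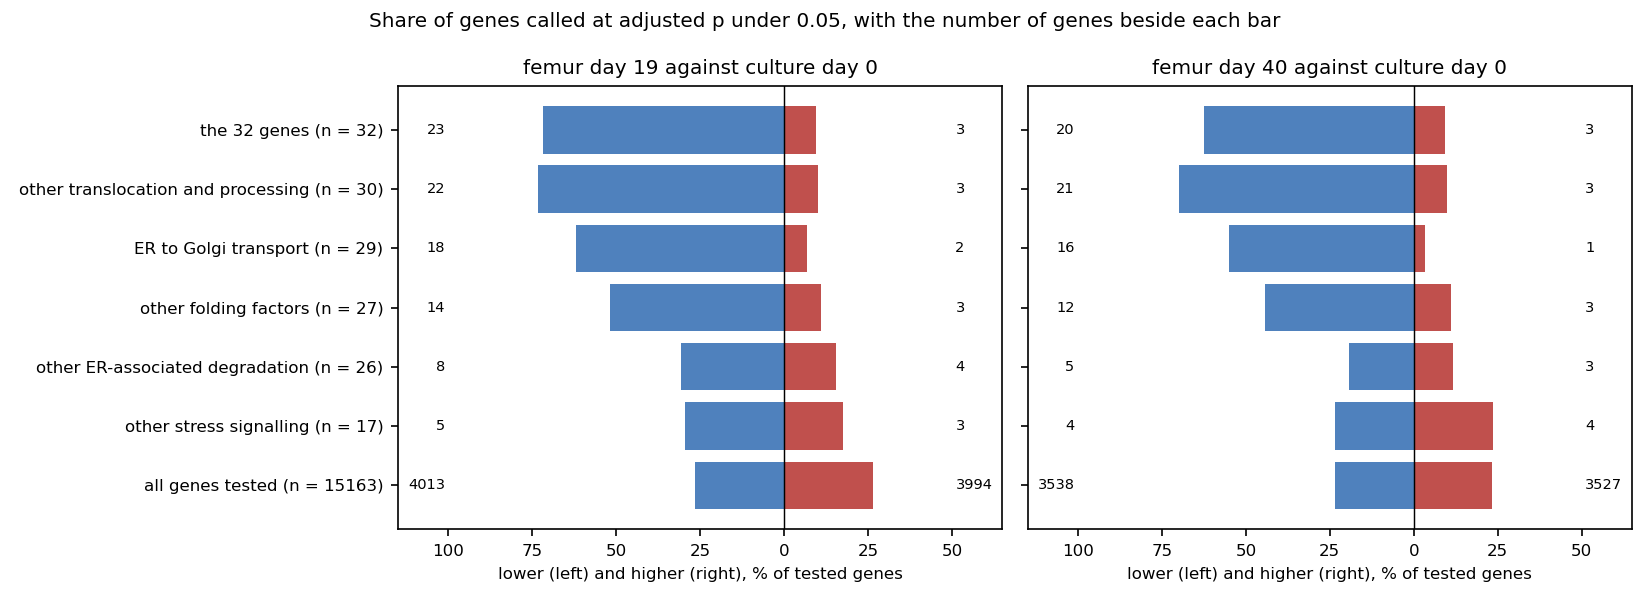
Share of genes called lower (left of 0) and higher (right of 0) in the 32 genes, the 5 other lists and all genes tested, for day 19 against culture (left) and day 40 against culture (right); numbers beside the bars are gene counts. The 32 genes and the other translocation genes have 23 of 32 and 22 of 30 genes lower at day 19, against 4013 of 15163 over all genes.

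Several other measures also differed between femur and culture libraries. Plasma cell markers, summed over 8 genes, lay between 908 and 942 CPM at day 19 and between 930 and 1133 CPM at day 40, against 1386 to 1856 CPM in culture. Of the 7 plasma cell markers tested, 2 were higher and 2 lower at day 19 and 3 were higher and 3 lower at day 40. Over all genes 26.3% were higher and 26.5% lower at day 19, and 23.3% in each direction at day 40. JCHAIN carried most of the sum, with 11704, 9300 and 10879 counts at day 19, against 24553, 29636 and 24655 counts in culture. IRF4 went the other way, with 137, 182 and 75 counts at day 19, against 5, 0 and 0 counts in culture. B cell markers, summed over 7 genes, lay between 2558 and 2767 CPM at day 19 and between 3004 and 3212 CPM at day 40, against 3775 to 4770 CPM in culture. Of these 7 genes 1 was higher and 4 lower at day 19, and 2 were higher and 4 lower at day 40. The shares over all genes are those given above for the plasma cell markers. CD22 had 205 ± 4.65 CPM at day 19 and 972 ± 113 CPM in culture, and MS4A1, which encodes CD20, had 455 ± 50.3 CPM at day 19 and 1181 ± 246 CPM in culture, while PAX5 was higher, with 836 ± 37.0 CPM at day 19 and 509 ± 35.3 CPM in culture. T cell, myeloid, erythroid, stromal and endothelial markers summed to under 8 CPM in every library, and HBB, S100A8, CD2, COL1A2, CXCL12, CDH5 and KDR had 0 counts in all 9. Within this low range the stromal sum was higher in the femur, at 4.04 to 6.80 CPM at day 19 and 3.44 to 4.57 CPM at day 40, against 0.0388 to 0.212 CPM in culture, with 5 of its 7 genes at 0 throughout. PDGFRB carried most of it, with 90, 142 and 117 counts at day 19 and 87, 114 and 82 counts at day 40, against 1, 2 and 0 counts in culture (adjusted p = 1.57e-07 at day 19 and 8.08e-07 at day 40). JCHAIN, IRF4, CD22, MS4A1, PAX5 and PDGFRB were chosen for naming after their values were seen. Immediate early and heat shock genes, which respond to cell handling, summed to between 369 and 506 CPM at day 19 and between 341 and 1344 CPM at day 40, against 223 to 275 CPM in culture. The median sum was 468 CPM at day 19, 422 CPM at day 40 and 230 CPM in culture, so the 1344 CPM was that of a single library. Of 10 such genes tested, 7 were higher at day 19, 9 were higher at day 40 and 0 were lower. Over all genes 26.3% were higher at day 19 and 23.3% at day 40. The part of these measures, and of the larger mitochondrial share, in the result was not tested.

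Fold changes also differed with gene length, in the 32 genes and over all protein-coding genes. At day 19 the 2 members with exon lengths under 1.5 kb had a median log2 fold change of -0.87, against -0.24 for all protein-coding genes of that length. The 6 members of 1.5 to 3 kb had -0.66, against -0.18 for all, and the 15 members of 3 to 6 kb had -0.42, against -0.05 for all. The 9 members above 6 kb had -0.39, against 0.06 for all. In every bin the median of the members lay below that of all protein-coding genes, though single members lay above it. The part of gene length in the fall was not tested. At day 40 the medians of the 32 genes in the same bins were -0.79, -0.49, -0.29 and -0.20, against -0.26, -0.16, -0.04 and 0.06 over all genes. SDF2L1 and SEC61B, the shortest of the 32 at 1099 and 1190 exon bases, had the largest falls. Across the 32 genes, which share the same libraries, log exon length correlated with the log2 fold change at a Pearson r of 0.37 and a Spearman rho of 0.50 at day 19, given as a description. At day 40 these were 0.50 and 0.53.

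**Figure D4:**
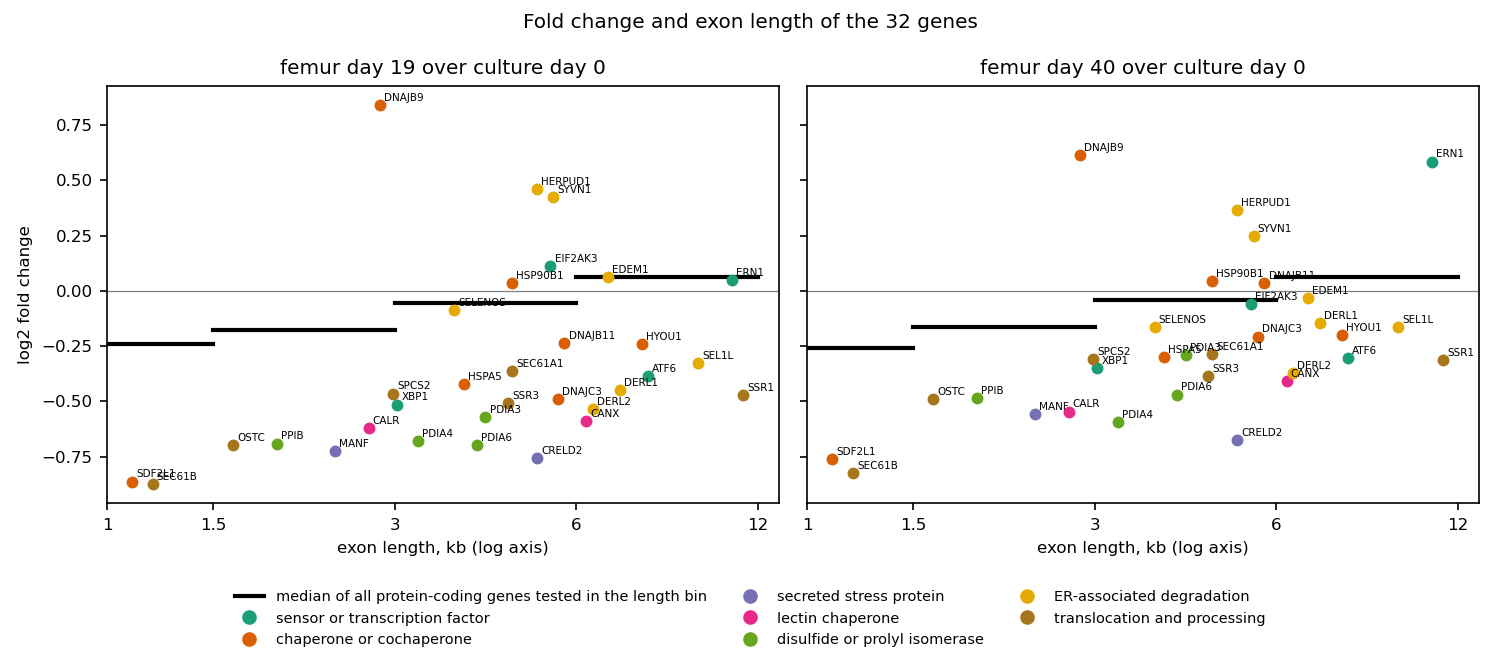
Log2 fold change of the 32 genes against exon length in kb (log axis), for day 19 over culture (left) and day 40 over culture (right); points are genes coloured by role and black bars are medians of all protein-coding genes tested in each length bin. SDF2L1 and SEC61B lie at the lower left, and DNAJB9, HERPUD1 and SYVN1 lie above the bars.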

How the data were processed

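The authors deposited raw counts per gene, in a file for each of the 9 libraries. The submitters' processing notes name FastQC 0.11.5, STAR 2.5.2a, featureCounts 1.4.6, DESeq2 1.40.1 and the build hg38. Not given in the sources used here are the annotation, the strand setting, and how mouse reads and reads that map to several places were handled. GENCODE release 29 (hg38) supplied positions and symbols, naming 57980 of 58243 identifiers and all 32 genes.

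Groups were taken from the day in the titles. Differences were tested with edgeR 4.0.16 in R 4.3.3 (filterByExpr, TMM scaling, quasi-likelihood F-test, a coefficient per group over all 9 libraries), with Benjamini-Hochberg adjustment over the 15163 genes tested and calls at an adjusted p under 0.05, two-sided. Every adjusted p comes from this test unless another tool is named. CPM uses TMM-scaled library sizes. Alternatives were RLE and total library size scaling, no filter, DESeq2 1.42.0, voom in limma 3.58.1, fits of 2 groups, each library left out, a block on the sampling period, and day 40 by replicate 3 alone. The procedure was tested on simulated counts.

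The sampling period pairs libraries by the title dates. Deviations from the group mean correlated within periods at 0.101, 0.132 and 0.305 between day 40 and day 19, so the periods were taken to pair these groups. Between day 19 and culture they correlated at 0.033, -0.05 and 0.118, and between day 40 and culture at 0.081, 0.202 and 0.168. Neither was taken as pairing. Across periods the correlations lay between -0.184 and 0.066 for day 40 and day 19, and between -0.137 and 0.087 for day 19 and culture. For day 40 and culture they lay between -0.2 and 0.015, below all same-period values. The correlations thus did not set day 40 and culture apart from the 2 femur groups.

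The 32 genes are a list of names with no measured value in its rule, but that list, the other lists and the tests were chosen with earlier results of these data known. Values per library are given for ATF6, ERN1, EIF2AK3, XBP1 and HSPA5, for the 6 called members with the largest rise and the 6 with the largest fall at each day against culture, and for members called between the femur groups. From each other list the up to 3 called genes with the smallest p at day 19 are named, except for a gene that is not reported here, and other genes are named as chosen after the values were seen.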

Additional observations from a re-analysis of the deposited data

Results flagged for a closer look

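PDIA3 and DERL1 were singled out because the changes from culture differed between day 40 and day 19 by a test of the difference itself. PDIA3 was higher at day 40 than at day 19 by 0.28 on the log2 scale, with log2 fold changes against culture of -0.29 at day 40 and -0.57 at day 19. DERL1 was higher by 0.30, with -0.15 at day 40, which was not called (adjusted p = 0.0853), and -0.45 at day 19. Both calls between the femur groups were lost when single femur libraries were left out.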

How the results depend on the processing

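No called fold change of the 32 genes changed sign under any alternative run. At day 19 between 22 and 24 of the 32 genes were lower and 2 or 3 higher in every alternative, and at day 40 only replicate 3 alone moved the count by over 1.5 times (14 called, 0 of them higher, beside 4065 genes over all, 2035 higher and 2030 lower; chosen after seeing the data). Between day 40 and day 19 the counts were unstable. Genes called over all were 1324 without the filter (890 higher, 434 lower), 1100 in the fit of 2 groups (396 lower), 99 with day 40 replicate 3 alone (82 higher, 17 lower) and 1654 in the block fit of 2 groups (1008 higher, 646 lower), and DESeq2 called 360 lower. Members called were 4 with DESeq2, 5 with the replicate block, 8 in the block fit of 2 groups and 0 with day 40 replicate 3 alone, all of them higher. Leaving out single libraries gave 280 to 1193 genes called (217 to 755 higher, 63 to 438 lower) and 0 to 3 members. The cause of these shifts was not tested. Against culture, a replicate block gave 24 lower and 3 higher members at day 19 and 21 lower and 3 higher at day 40. Over all 15163 genes that fit called 4143 lower and 4176 higher at day 19, and 3665 lower and 3696 higher at day 40. Across the alternatives at day 19, between 3216 and 4242 genes were lower over all and between 3390 and 4652 higher. HERPUD1 at day 40 was called with RLE scaling (adjusted p = 0.0491), DESeq2 (0.0305), total library size scaling (0.0204), no filter (0.000284) and the fit of 2 groups (0.0431), and with culture replicate 2, day 40 replicate 2 or day 19 replicate 3 left out, and DNAJB11 at day 19 was called in 7 alternatives. Each of the 32 genes had at least 199 counts in every library, and each group had 3 libraries.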

Other observations

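The 32 genes varied little between libraries of a group. The median coefficient of variation was 4.53% at day 19, 3.90% at day 40 and 6.05% in culture. The widest in each group were HERPUD1 at day 19 (17.8%), ERN1 at day 40 (25.4%) and SELENOS in culture (18.2%).

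Some genes of the wider pathway also differed between the femur groups. DNAJC10 had 217 ± 15.2 CPM at day 40 and 144 ± 8.38 CPM at day 19 (SD, n = 3 each; log2 fold change 0.59, adjusted p = 0.000555 in edgeR's quasi-likelihood test). TRAM1 was lower, with 201 ± 27.5 CPM at day 40 and 279.7 ± 9.79 CPM at day 19 (log2 fold change -0.48, adjusted p = 0.0263). The day 40 means of both genes lay between the day 19 and culture means. At day 40 PPP1R15A, which encodes a phosphatase subunit that restores translation, had 109 ± 65.8 CPM, against 49.1 ± 11.8 CPM in culture (log2 fold change 1.15, SE 0.31, adjusted p = 0.00979), a spread far wider than that of the 32 genes.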
